A study of Mus musculus with 5 samples.

Results

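The 8 genes described here carry the MHC class I presentation pathway: the heavy chain genes H2-K1, H2-D1 and H2-T23, the light chain gene B2m, the peptide transporter genes Tap1 and Tap2, the tapasin gene Tapbp and the transactivator gene Nlrc5. They were taken by symbol, through their Entrez identifiers, from 27179 genes in each of 3 count tables, and all 8 were found. The genes were chosen by pathway, but with measured values of the knockout against control contrast in view, in which H2-D1 upstream was already known to stand high, so the members' differences are described and not tested. The measured quantity was H3K14ac, the acetylation of lysine 14 on histone H3, read by CUT&Tag: a transposase brought in by an antibody cuts and tags the DNA around the mark. The study asked how this mark differs in blood stem and progenitor cells that lack HBO1, an acetyltransferase of H3K14 encoded by Kat7. The knockout group had 2 libraries with the genotype Hbo1def/def; T/+, and the control group had 2 libraries with the genotype Hbo1def/+; T/+. Both groups were LSK cells, the lineage-negative, Sca-1-positive and Kit-positive fraction, sorted from bone marrow of male C57BL/6 mice, and in both the Mx1-cre recombinase was induced with poly(I:C). Mx1-cre is driven by an interferon-inducible promoter and acts in other tissues than blood, and poly(I:C) itself raises interferon, so both groups had been exposed to an inducer of class I genes. The labels give neither the age of the mice, nor the meaning of T, nor whether a library came from 1 mouse, so p-values measure only the spread between these libraries, which may be technical. A further library of control cells made with an HBO1 antibody was not analysed here.

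Class I molecules display peptides from inside the cell to cytotoxic T cells and natural killer cells. A heavy chain pairs with beta-2 microglobulin in the endoplasmic reticulum, where the TAP transporter delivers peptides and tapasin holds the empty molecule to the transporter until a peptide is bound. Interferons raise most genes of the pathway, through response elements and an enhanceosome at the promoter that Nlrc5 joins, and stem and progenitor cells of the blood carry class I molecules on their surface. Histone acetylation near a start site generally goes with an open or active promoter.

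Counts were given per gene over the body and over the flanks of 5 kb before the start site and after the end. The knockout libraries held 1065978 and 869859 upstream counts, against 1164409 and 1078248 in controls. Over gene bodies they held 4723549 and 6031189 counts, against 12386891 and 10572534 in controls. Upstream counts made up 16.48% and 11.39% of all counts in the knockout libraries, against 7.86% and 8.43% in controls. Kat7 itself had 19.3 and 24.4 CPM (counts-per-million, TMM scaled) upstream in the knockout libraries, against 45.1 and 40.6 CPM in controls, and did not pass the threshold there (edgeR adjusted p = 0.0872). Over its body Kat7 had 88.2 and 39.1 CPM in the knockout libraries, against 30.7 and 30.1 CPM in controls, and rose (edgeR adjusted p = 0.00668, log2 fold 1.06 ± 0.32). It no longer passed without knockout 1 (edgeR adjusted p = 0.374, log2 fold 0.39), without either control, with libraries scaled on receptor genes of smell and pheromones, or with a term for the replicate number. Counts of a histone mark do not check the deletion. In a sorted population, fewer cells that carry a mark and less mark per cell cannot be told apart.

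Promoter sequences were available for 6 of the 8 genes (RefSeq, GRCm38.p6, 250 bases before the start site and 50 from it on). The 4 below are shown because they hold the class I heavy chain promoter twins, the light chain promoter with an interferon element, and the start region that Tap1 has back to back with the immunoproteasome gene Psmb9. Capitals mark matches to the interferon-stimulated response element (GAAA, 2 free bases, GAAA), GGGNNTTCC (NF-kB), TGACG (the core of a cAMP response element, as in the X2 box) and CCAAT (as in the Y box), searched on both strands.
H2-K1, chr17:34000298-34000597, minus strand: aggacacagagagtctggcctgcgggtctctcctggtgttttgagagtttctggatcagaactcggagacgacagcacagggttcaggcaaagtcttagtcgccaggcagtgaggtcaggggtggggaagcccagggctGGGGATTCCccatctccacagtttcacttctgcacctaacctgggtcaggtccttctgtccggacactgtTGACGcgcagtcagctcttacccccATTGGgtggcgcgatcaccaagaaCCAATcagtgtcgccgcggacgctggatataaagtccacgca
H2-D1, chr17:35262844-35263143, plus strand: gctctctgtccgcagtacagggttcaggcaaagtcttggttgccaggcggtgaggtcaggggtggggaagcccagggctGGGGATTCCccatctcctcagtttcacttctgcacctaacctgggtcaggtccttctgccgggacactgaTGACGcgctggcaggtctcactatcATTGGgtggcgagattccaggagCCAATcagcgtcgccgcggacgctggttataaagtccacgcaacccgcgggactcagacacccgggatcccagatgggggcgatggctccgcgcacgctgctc
B2m, chr2:122147437-122147736, plus strand: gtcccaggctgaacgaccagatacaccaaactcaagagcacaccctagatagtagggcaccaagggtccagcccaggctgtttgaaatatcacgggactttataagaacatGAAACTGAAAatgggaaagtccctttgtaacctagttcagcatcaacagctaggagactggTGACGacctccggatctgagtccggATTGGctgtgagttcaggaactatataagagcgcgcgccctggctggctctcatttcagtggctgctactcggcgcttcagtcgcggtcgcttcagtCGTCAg
Tap1, chr17:34187306-34187605, plus strand: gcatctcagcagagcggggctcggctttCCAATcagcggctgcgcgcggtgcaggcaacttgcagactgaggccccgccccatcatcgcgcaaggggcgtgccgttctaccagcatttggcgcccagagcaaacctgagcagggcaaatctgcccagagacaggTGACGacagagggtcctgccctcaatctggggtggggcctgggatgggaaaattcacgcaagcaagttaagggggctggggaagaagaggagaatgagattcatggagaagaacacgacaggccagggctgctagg

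The H2-K1 and H2-D1 promoters were identical at 214 of 239 aligned bases (89.5%), whereas the other pairs among the 6 promoters were 50.4% to 59.4% identical. Both held the NF-kB match GGGGATTCC, then TGACG 70 bases further on, a reversed CCAAT 25 bases after that, a forward CCAAT, and the letters TATAAA. In H2-D1 these matches began at -171, -101, -76, -53 and -26 from the start site, and in H2-K1 at -111, -41, -16, 9 and 36. The table lists 2 start sites for H2-K1, of which the outer one is shown. B2m held the interferon match GAAACTGAAA at -139 to -130, TGACG at -78 and a reversed CCAAT at -53. H2-T23 held an interferon match in reverse, TTTCTCTTTC, at -124 to -115 and CCAAT at -52. Tap1 held TGACG at -86 and CCAAT at -222, and Tapbp held a reversed CCAAT at -248 and at -165. Among 32851 mouse promoters of the same length, 3.4% held the interferon letters, 5.8% the NF-kB letters, 20.8% TGACG, 37.4% CCAAT and 13.6% TATAAA. No matches overlapped within these 6 promoters, and a match describes letters, not binding. An interferon element with letters other than the pattern searched would be missed, so a promoter without a match may still hold one. The observed over expected CpG ratio was 0.68 in B2m, 0.65 in H2-D1, 0.56 in H2-K1 and Tapbp, 0.55 in Tap1 and 0.34 in H2-T23, against a median of 0.38 over all promoters.

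Upstream of the start site, H3K14ac was higher in both knockout libraries than in both controls at all 8 genes, most of all at H2-D1, B2m, Tapbp and H2-K1, and least at Tap2 and Nlrc5. Both knockout libraries lay above both controls at 37.8% of the 23200 genes tested upstream, and below both at 39.9%. At H2-D1 (Entrez 14964, chromosome 17, 35263094 to 35267497, plus strand, GRCm38), which encodes a classical heavy chain, the level was 308 and 151 CPM in the knockout libraries, against 5.21 and 14.1 CPM in controls. These values rest on 271 and 136 counts in the knockout libraries, against 6 and 17 in controls, and the 6 counts have an exact 95% Poisson interval of 2.2 to 13.06. The mean level was 23.8-fold higher in knockouts, with a fitted log2 fold of 4.55 ± 0.74 (SE). The lower knockout library was thus still far above the higher control.

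The other classical heavy chain gene, H2-K1 (Entrez 14972, chromosome 17, 33996012 to 34000347, minus strand), had 157 and 57.6 CPM in the knockout libraries, against 21.7 and 28.2 CPM in controls, a log2 fold of 2.10 ± 0.52. Its control level was higher than that of H2-D1 in both libraries, and its knockout level lower in both, although the promoters are nearly the same. H2-T23 (Entrez 15040, chromosome 17, 36029977 to 36032701, minus strand) encodes the heavy chain of Qa-1, a non-classical molecule that natural killer cells read. It had 46.6 and 24.4 CPM in the knockout libraries, against 7.81 and 15.7 CPM in controls, a log2 fold of 1.57 ± 0.51. The gap between the nearest libraries of the groups was the narrowest of the 3 heavy chain genes.

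B2m (Entrez 12010, chromosome 2, 122147687 to 122153082, plus strand), the light chain gene of every class I molecule, had 272 and 136 CPM in the knockout libraries, against 33.8 and 44.7 CPM in controls, a log2 fold of 2.37 ± 0.65. It lies on another chromosome than the heavy chain genes, and its lower knockout library too was well above its higher control. Tapbp (Entrez 21356, chromosome 17, 33919478 to 33929290, plus strand) had 52.3 and 27.7 CPM in the knockout libraries, against 3.47 and 12.4 CPM in controls, a log2 fold of 2.30 ± 0.53. The lower control value rests on 4 counts (exact 95% Poisson interval 1.09 to 10.24).

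The fitted upstream values of the transporter genes lay apart, and that difference was not tested. Tap1 (Entrez 21354, chromosome 17, 34187556 to 34197225, plus strand) had 107 and 49.9 CPM in the knockout libraries, against 32.1 and 28.2 CPM in controls, a log2 fold of 1.37 ± 0.49. Tap2 (Entrez 21355, chromosome 17, 34204479 to 34216321, plus strand) had 170.5 and 115 CPM in the knockout libraries, against 111 and 106 CPM in controls, a log2 fold of 0.40 ± 0.63. Tap2 had by far the highest upstream level of the 8 genes in both controls, and its groups nearly touched. Nlrc5 (Entrez 434341, chromosome 8, 94472763 to 94527272, plus strand) encodes a transactivator of class I genes. It had 38.6 and 45.4 CPM in the knockout libraries, against 24.3 and 37.3 CPM in controls, a log2 fold of 0.45 ± 0.45. Its nearest knockout and control libraries differed by little, and Nlrc5 was the only member whose second knockout library was the higher upstream.

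Of the 8 members, 6 lay past the edgeR threshold upstream (adjusted p under 0.05), all higher in knockouts, and Tap2 and Nlrc5 did not. Across all genes tested upstream 38.3% passed in either direction, 24% passed as higher and 14.3% as lower. The median member log2 fold was 1.84 upstream, beside -0.09 for all genes tested. The median member log2 fold was 1.15 without knockout 1, 2.44 without knockout 2, 1.57 without control 1 and 2.23 without control 2. The medians of all genes tested in those fits were 0.02, -0.07, -0.099 and -0.04. Member calls upstream were lost in some of those fits. The last section gives the range of calls for members and for all genes.

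**Figure D1:**
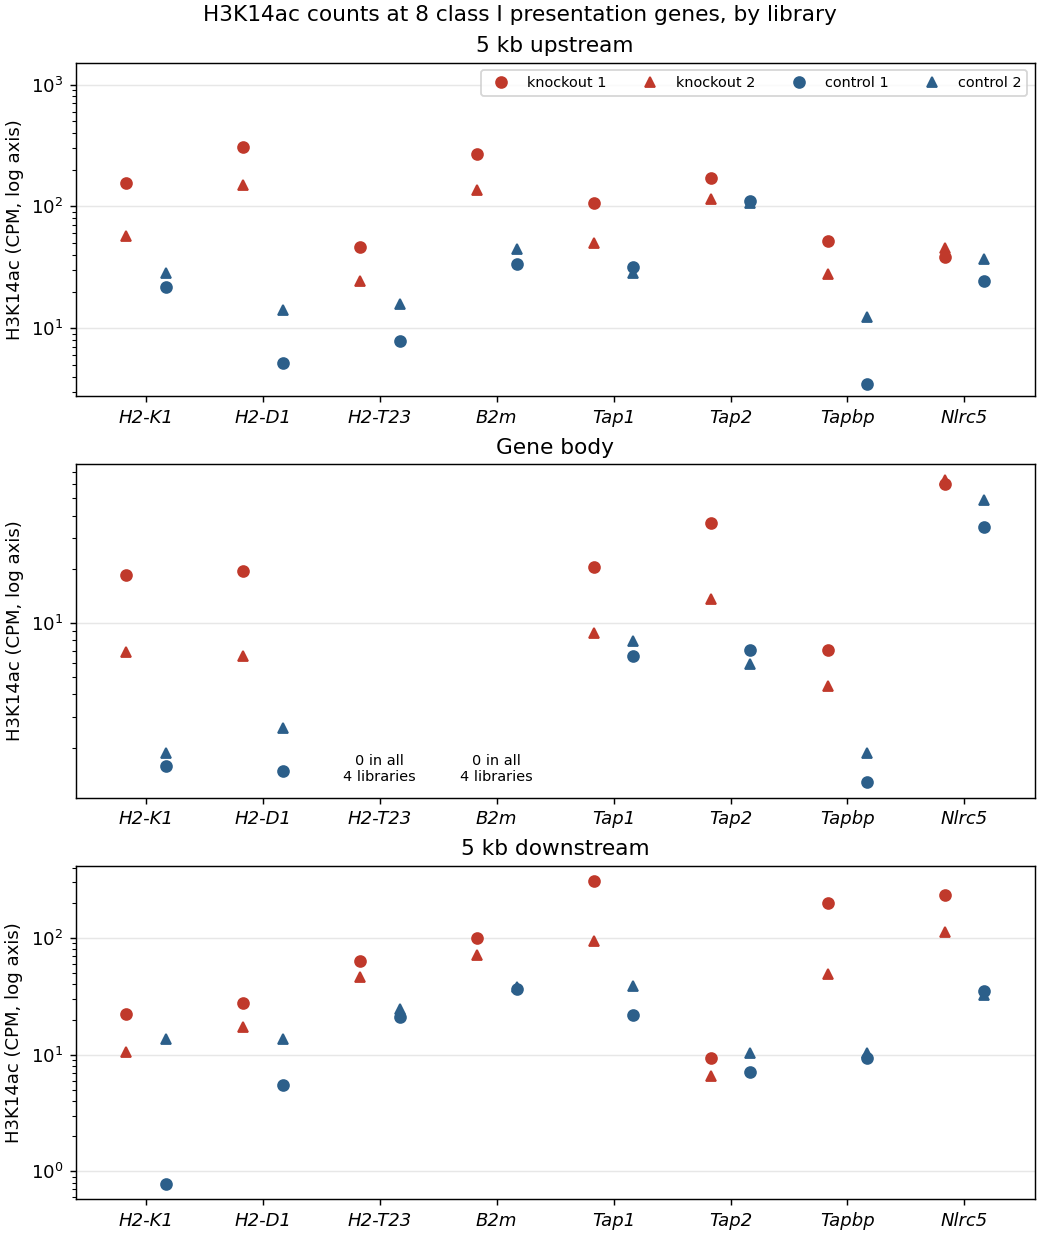
H3K14ac in CPM (log axis) of the 8 genes in each library, with the knockout libraries left of the controls, for the upstream flank, the gene body and the downstream flank. Upstream both knockout libraries sit above both controls at every gene, from 308 and 151 CPM against 5.21 and 14.1 CPM at H2-D1 to a narrow gap at Tap2, and the bodies of H2-T23 and B2m hold no counts.

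Over gene bodies, H3K14ac was higher in both knockout libraries at each of the 6 members that had body counts. Both knockout libraries were above both controls at 40.6% of the 21393 gene bodies tested, and below both at 39.4%. H2-K1 had 18.7 and 6.86 CPM in the knockout libraries, against 1.58 and 1.88 CPM in controls, a log2 fold of 2.86 ± 0.55. H2-D1 had 19.6 and 6.56 CPM in the knockout libraries, against 1.48 and 2.57 CPM in controls, a log2 fold of 2.67 ± 0.54. The bodies of these heavy chain genes were thus alike in level in every library, unlike their upstream flanks. Tap2 had 36.3 and 13.6 CPM in the knockout libraries, against 7.11 and 5.94 CPM in controls, a log2 fold of 1.92 ± 0.42, so its groups stood well apart in the body although they nearly touched upstream. Tapbp had 7.03 and 4.47 CPM in the knockout libraries, against 1.28 and 1.88 CPM in controls, a log2 fold of 1.84 ± 0.56.

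Tap1 had 20.5 and 8.80 CPM over its body in the knockout libraries, against 6.52 and 7.92 CPM in controls, a log2 fold of 1.01 ± 0.45 that did not pass the threshold. The second knockout library exceeded the higher control only slightly. Nlrc5 had 59.7 and 63.5 CPM in the knockout libraries, against 34.7 and 48.7 CPM in controls, a log2 fold of 0.56 ± 0.30 that did not pass either. It is the longest member, with a counted length of 54510 bp, and its values rest on 323 and 426 counts in the knockout libraries, against 351 and 492 in controls. The annotated length of Nlrc5 is 92938 bp, so part of the annotated gene lies outside the counted span. A 5 kb flank of Nlrc5, upstream or downstream, may therefore lie inside the annotated gene. Of the 6 members tested over the body, 4 lay past the threshold, beside 38.3% of all gene bodies in either direction, 23.1% as higher and 15.2% as lower. Their median log2 fold was 1.88, beside 0.02 for all gene bodies. The median member log2 fold was 1.30 without knockout 1, 2.34 without knockout 2, 1.83 without control 1 and 1.97 without control 2. The medians of all gene bodies in those fits were 0.05, 0.042, 0.002 and 0.056. Member calls over the body were lost in some of those fits. Calls of members and of all genes are given as ranges in the last section.

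The bodies of H2-T23 and B2m held 0 counts in all 4 libraries. In the RefSeq annotation H2-T23 lies inside A930015D03Rik and B2m lies inside Patl2. Of 1285 genes that lie inside another counted gene, 91.21% were at 0 in all 4 libraries, against 1.56% of the 22546 others, so a body value of these genes is missing and is not a low level. The surrounding gene A930015D03Rik had 540 and 310 body counts in the knockout libraries, against 160 and 192 in controls (log2 fold 2.07 ± 0.33, edgeR adjusted p = 1e-06). Patl2 had 497 and 452 body counts in the knockout libraries, against 602 and 547 in controls, a log2 fold of 0.49 ± 0.29 that did not pass (edgeR adjusted p = 0.171). Both 5 kb flanks of H2-T23 also lie wholly inside A930015D03Rik, with 574 bp of the upstream one in H2-T22 besides, and both flanks of B2m lie wholly inside Patl2. The body and flank values of H2-T23 and B2m therefore cannot be told apart from these surrounding genes.

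Downstream of the end, the order of the members was different: Tapbp, Tap1 and Nlrc5 were the highest in knockouts relative to controls, while the classical heavy chain genes had log2 folds close to those of H2-T23 and B2m but larger errors. Both knockout libraries were above both controls at 6 members, and at 29.9% of the 21566 genes tested downstream, where they were below both at 32.7%. Tapbp had 198 and 48.8 CPM in the knockout libraries, against 9.39 and 10.4 CPM in controls, a log2 fold of 3.60 ± 0.55. Tap1 had 308 and 94.95 CPM in the knockout libraries, against 21.9 and 39.1 CPM in controls, a log2 fold of 2.71 ± 0.60. Nlrc5 had 233 and 112 CPM in the knockout libraries, against 35.2 and 32.7 CPM in controls, a log2 fold of 2.33 ± 0.49. The groups were far apart at all 3 genes, and the first knockout library was the higher at each.

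The downstream flank of B2m had 101 and 71.2 CPM in the knockout libraries, against 36.8 and 38.3 CPM in controls, a log2 fold of 1.18 ± 0.35. That of H2-T23 had 63.4 and 46.2 CPM in the knockout libraries, against 21.1 and 24.7 CPM in controls, a log2 fold of 1.24 ± 0.37. Their knockout counts were close to each other and their groups did not overlap. H2-D1 had 27.97 and 17.1 CPM downstream in the knockout libraries, against 5.48 and 13.6 CPM in controls (log2 fold 1.21 ± 0.58), and H2-K1 had 22.4 and 10.6 CPM against 0.783 and 13.6 CPM in controls (1.14 ± 0.80). Neither passed, and the H2-K1 groups overlapped, with 1 count in the first control library. Tap2 had 9.32 and 6.59 CPM in the knockout libraries, against 7.04 and 10.4 CPM in controls, and its 5 to 13 counts were too few to be tested.

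Of the 7 members tested downstream, 5 lay past the threshold, beside 13.1% of all genes in either direction, 10.8% as higher and 2.29% as lower. The median member log2 fold was 1.24, beside -0.04 for all genes tested. The median member log2 fold was 1.02 without knockout 1, 1.72 without knockout 2, 1.16 without control 1 and 2.28 without control 2. The medians of all genes tested in those fits were 0.006, -0.015, -0.039 and -0.012. Member calls downstream were lost in some of those fits. Calls of members and of all genes are given as ranges in the last section. All 21 fitted member values were above 0, and none of the 263 values of these under 13 other settings was below 0. Tap2 downstream is not among them, since only the setting with no filter fitted it. Its mean CPM in knockouts was 0.914 of that in controls.

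**Figure D2:**
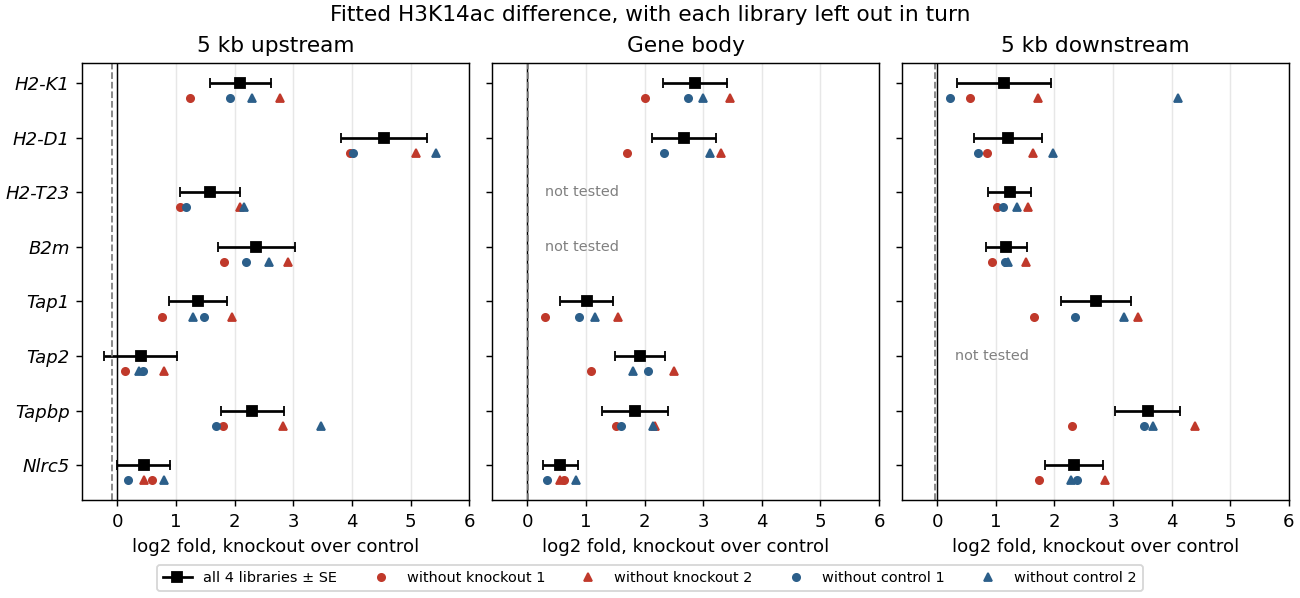
Fitted log2 fold of H3K14ac, knockout over control, for each gene in the 3 region classes, as squares with standard errors, and the same value with 1 library left out, as small symbols. The dashed line is the median of all genes tested. H2-D1 stands highest upstream at 4.55 and Tapbp highest downstream at 3.60, and values without knockout 1 are the lowest of the 4 at most genes.

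The members differed between libraries of 1 group as well. Knockout 1 exceeded knockout 2 at 7 of 8 members upstream, 5 of 6 over the body and 8 of 8 downstream, with median ratios of 1.95, 2.5 and 1.86. The same ratio over all genes tested had a median of 0.96, 1.0 and 0.99, which the scaling of the libraries holds near 1. Related genes showed the excess of the first knockout library too: upstream, 15 genes that make or load peptides summed to 1920 CPM in knockout 1 and 1014 CPM in knockout 2, and 25 regulators to 3514 and 1672 CPM. The excess was smaller at 17 other class I and class I-like genes (1105 and 852 CPM) and 12 class II genes (889.9 and 703.5 CPM). It was smallest at 17 interferon response genes (1302 and 1167 CPM). Control 1 exceeded control 2 at 2 of 8 members upstream, 1 of 6 over the body and 1 of 8 downstream, with median ratios of 0.7, 0.77 and 0.77. Without knockout 1, the log2 fold was 3.97 at H2-D1 and 1.24 at H2-K1 upstream, and 0.31 at Tap1 and 1.08 at Tap2 over the body. The H2-K1 value downstream lay between 0.22 and 4.11 with any library left out, the widest span of the 21 fitted values. At H2-D1 the upstream value stayed between 3.97 and 5.43 with any library left out.

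The share of a gene's own counts that lay upstream does not depend on the scaling of libraries, and it differed most between the groups at H2-D1 and B2m. At H2-D1 upstream counts made up 69.1% and 70.5% of the gene's counts over the 3 region classes in the knockout libraries, against 21.4% and 28.3% in controls. The 95% Wilson intervals were 64.4% to 73.5% and 63.7% to 76.5% in the knockout libraries, against 10.2% to 39.5% and 18.5% to 40.8% in controls, and they cover counting error only. At B2m, which has no body counts, the share was 81.6% and 69.5% in the knockout libraries, against 45.3% and 52.9% in controls. Tap2 went the other way, with 42.7% and 52.0% in the knockout libraries, against 61.2% and 63.7% in controls. At H2-K1 the share was 55.0% and 49.1% in the knockout libraries, against 59.5% and 48.6% in controls, so the groups overlapped at this close relative of H2-D1. The groups also overlapped at Tap1, Tapbp and Nlrc5, where Nlrc5 lay between 6.6% and 7.8% in all 4 libraries. At H2-T23 the share was 54.7% and 38.6% in the knockout libraries, against 25% and 38% in controls, so the nearest libraries of the groups were almost equal. Over all genes the upstream share of counts was itself higher in knockouts, as given above, and its part in the shifts at H2-D1 and B2m was not tested.

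**Figure D3:**
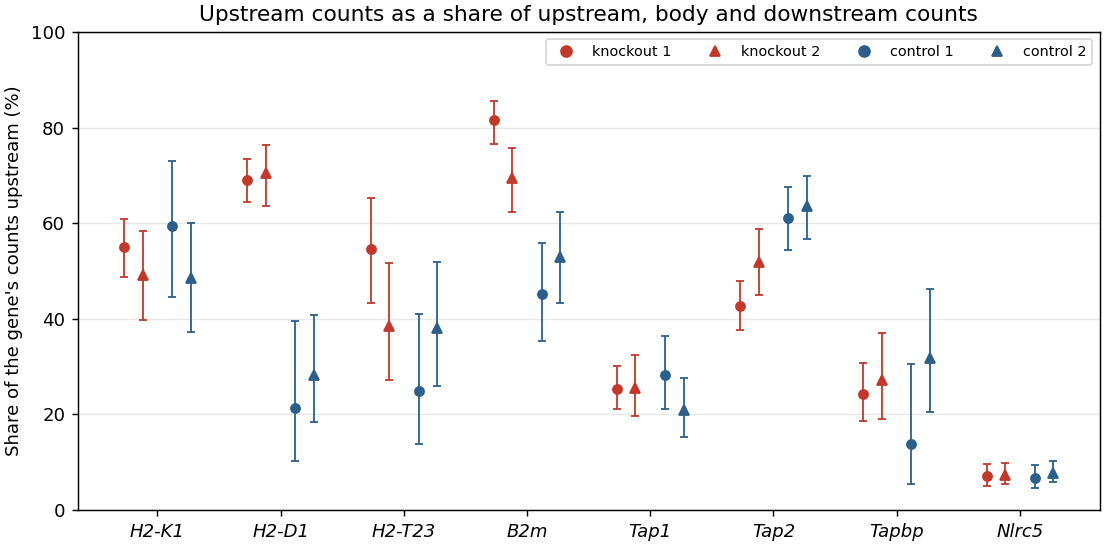
Upstream counts as a percentage of each gene's counts over the upstream flank, body and downstream flank, for each library with its 95% Wilson interval, knockout libraries left of controls. H2-D1 (69.1% and 70.5% against 21.4% and 28.3%) and B2m lie higher in knockouts, Tap2 lies lower, H2-T23 is higher in knockouts with almost no gap between the groups (54.7% and 38.6% against 25% and 38%), and the groups overlap at the other 4 genes.

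Levels of different genes were compared as densities, in CPM per kb of region, for which the library total was pooled over the 3 region classes. Upstream in the knockout libraries H2-D1 had 8.38 and 3.56 and B2m had 7.39 and 3.22, next to each other at the top, followed by Tap2 with 4.64 and 2.72. H2-T23, Tapbp and Nlrc5 lay at the bottom of the knockout libraries, with 1.27 and 0.576, 1.42 and 0.655, and 1.05 and 1.07, and did not differ beyond the spread between libraries. In controls Tap2 led with 1.73 and 2.00, ahead of B2m with 0.527 and 0.844, and Tapbp, H2-D1 and H2-T23 were the lowest, with 0.054 and 0.234, 0.081 and 0.266, and 0.122 and 0.297. H2-D1 was therefore among the lowest members in controls and the highest in knockouts. Over gene bodies H2-D1 had 3.72 and 1.31 and H2-K1 had 3.61 and 1.39 in the knockout libraries, against 0.230 and 0.461 for H2-D1 and 0.2499 and 0.344 for H2-K1 in controls. These neighbours in the order could not be told apart, while Nlrc5, with 0.435 and 0.706 in controls, stood among the higher bodies there.

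Tap1 and Tap2 sit in the class II region with the immunoproteasome genes Psmb9 and Psmb8, and the 5 kb flanks reach from one gene into the next. The start sites of Tap1 and Psmb9 are 226 bp apart and point away from each other, so the upstream flank of Tap1 covers 4775 bp of Psmb9, and the flanks that precede both genes share 225 bp. The downstream flank of Tap1 holds the whole of Psmb8, which starts 970 bp past the Tap1 end, and shares 771 bp with the downstream flank of Psmb8. The flank values of Tap1 therefore cannot be told apart from those of Psmb9 and Psmb8. The upstream flank of Tap2 covers the last 1976 bp of Psmb8. Along this stretch the body of every gene was higher in both knockout libraries. Psmb8, which replaces a constitutive proteasome subunit and helps cut peptides for class I, had a body density of 5.08 and 2.09 CPM per kb in the knockout libraries, against 0.373 and 0.863 in controls. Psmb9, its partner subunit, had 2.81 and 1.13 in the knockout libraries, against 0.477 and 0.553 in controls. Tap1 had 1.78 and 0.799 in the knockout libraries, against 0.461 and 0.647 in controls, and Tap2 had 2.56 and 1.01 against 0.410 and 0.396 in controls. Psmb8 and Psmb9 rose over the body (log2 folds 2.35 ± 0.52 and 1.72 ± 0.50, edgeR adjusted p = 0.000297 and 0.00576) and, by less, upstream (1.20 ± 0.51 and 1.15 ± 0.48, edgeR adjusted p = 0.0476 and 0.043). Tap1 had the smallest fitted value of the 4 bodies.

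**Figure D4:**
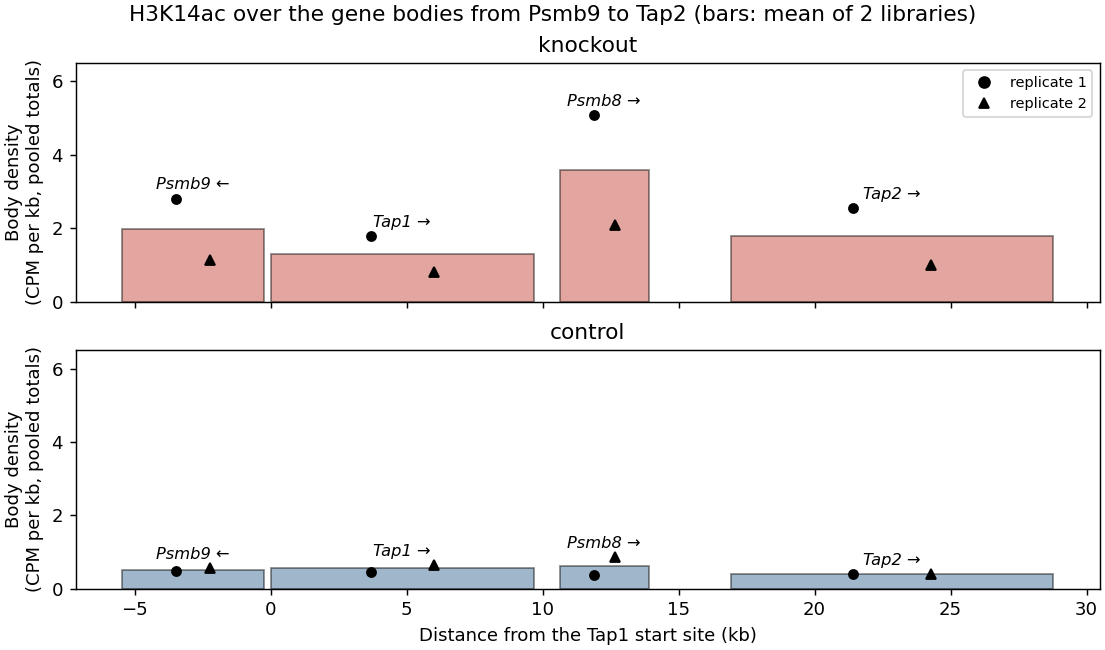
H3K14ac over the bodies of Psmb9, Tap1, Psmb8 and Tap2, as density in CPM per kb, against the distance from the Tap1 start site in kb, with knockouts above controls. Bars are means of 2 libraries, points are the libraries and arrows give the direction of transcription. Psmb8 is the highest of the 4 in knockouts (5.08 and 2.09), and in controls the 4 genes lie between 0.373 and 0.863.

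The flanks of Tapbp reach into several genes. The upstream flank holds the whole of Zbtb22, a zinc finger gene that starts 3302 bp away, and 1113 bp of the end of Daxx, which encodes a histone chaperone. It also shares 1698 of its 5000 bp with the upstream flank of Zbtb22. The downstream flank of Tapbp holds the start site of Rgl2, a gene for an exchange factor of Ral, 604 bp past the Tapbp end. It shares 382 bp with the downstream flank of Pfdn6. Rgl2 had 103 and 35 body counts in the knockout libraries, against 11 and 18 in controls (log2 fold 3.06 ± 0.57), Daxx rose by a log2 fold of 3.29 ± 0.59 and Zbtb22 by 2.69 ± 0.65 (edgeR adjusted p = 2.36e-05, 1.03e-05 and 0.000803). Gm19412, on the minus strand, covers 1019 bp of the Tapbp body, with its start site there, and 189 bp of the upstream flank. The flank values of Tapbp cannot be told apart from those of these neighbours. The body value of Tapbp, 1.84, was lower than those of Rgl2, Daxx and Zbtb22. How reads in the body stretch shared with Gm19412 were counted is not given, so that value may be incomplete. By contrast the 3 regions of H2-D1, H2-K1 and Nlrc5 hold no other gene of the 23831 counted genes with 1 curated RefSeq span. Counted genes without such a span were not placed. Among placed genes with a symbol, the nearest start site beyond the Nlrc5 end is that of Cpne2, at 5756 bp.

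Class I genes have many near copies, which can share reads. Of all 50-base words in a region, 94.7% occurred once in the genome for the upstream flank of H2-D1 and 86.4% for that of H2-K1. The figure was 83.8% for the body of H2-D1 and 82.7% for that of H2-K1. It was lowest at H2-T23, with 57.4% upstream and 68.7% over the body, and in the downstream flank of Tap2 (63.1%). Values of H2-T23 upstream are therefore uncertain, and how the authors treated reads with several matches is not given in the sources used here. B2m, Tap1 and Tapbp had 96.6% or more in all 3 regions.

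The genes nearest to 5 members by their 12 log2 CPM values (3 region classes in 4 libraries, Euclidean distance among 17654 genes) came from many functions. Nearest to H2-D1 were Zc3h10, Slc25a39 and Ptges2, at distances of 1.72, 1.85 and 2.05, against a median of 7.91 over all genes. H2-K1 was nearest to Ndufb9, Irf7 and Pabpc1 (1.55, 1.59 and 1.74, median 7.6). Irf7, a factor of the interferon response, was the one gene of the related lists among these neighbours. Tap1 was nearest to Tmco1 (0.98), Tapbp to Cnpy4 (1.12) and Nlrc5 to C2cd2 (1.21), followed by Ccdc134 and D030028A08Rik for Tap1, Slc35a2 and Vps11 for Tapbp, and Tmem44 and Mon2 for Nlrc5. H2-T23, B2m and Tap2 were not tested in all 3 region classes and have no such neighbours.

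The wider pathway was described with 5 lists of 86 genes, of which 43 rose upstream in the edgeR fit and 0 fell. At an unadjusted p under 0.05, 1 was lower, and 0 fell by the DESeq2 Wald test. With library totals 1 class II gene fell upstream, and 1 fell with the crossed block described in the last section. Of all genes tested 24% rose upstream, 23.1% over the body and 10.8% downstream, and the counts given below for class II genes over the body and downstream, for interferon response genes in all 3 region classes and for regulators downstream lie near or below those shares. Calls with 1 library left out, given below for each list, are to be read beside the ranges for all genes in the last section. Of 15 genes that make or load peptides, 11 rose upstream, with a median log2 fold of 1.33, and 11 of 15 rose over the body (1.44). The upstream rises included Psme1, an activator subunit of the proteasome (102 and 31.0 CPM in knockouts, against 9.55 and 17.4 CPM in controls, log2 fold 2.29 ± 0.48, edgeR adjusted p = 4.92e-05), the aminopeptidases Lnpep (3.31) and Tpp2 (2.24), and Calr (2.60). Over the body Calr, a chaperone that holds class I molecules during loading, had 31.8 and 9.54 CPM in knockouts, against 1.58 and 1.29 CPM in controls (log2 fold 3.83 ± 0.53, edgeR adjusted p = 4.16e-08), and Psmb10, Hspa5 and Psme2 rose by 3.51, 3.38 and 2.67. Downstream 2 of 9 tested rose, Calr (4.69) and Canx (4.0), with a list median of 1.16. Upstream at most 3 of these genes passed without knockout 1, without control 1 or without control 2. Over the body 5, 3 and 7 passed without those libraries, and downstream 1 passed without either control.

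The 17 other class I and class I-like genes were less uniform. Upstream 7 of 17 rose (median 0.62), over the body 7 of 16 rose (0.82), and downstream 4 of 12 rose (1.04). H2-M3, which presents formylated peptides, had 61.4 and 36.6 CPM upstream in knockouts, against 7.81 and 9.12 CPM in controls (log2 fold 2.51 ± 0.52, edgeR adjusted p = 3.37e-05). Cd1d1, which presents lipids, rose by 2.26 upstream and 2.53 over the body, and Hfe, a regulator of iron uptake, by 1.79 and 2.07. H2-Q4 rose by 1.94 upstream and 2.69 over the body, and downstream H2-T10 (2.28), Hfe (2.17), H2-Q4 (1.85) and Fcgrt (1.44) rose. Upstream at most 1 of these genes passed without knockout 1, without control 1 or without control 2. Over the body 4, 3 and 4 passed without those libraries, and downstream 2 passed without knockout 1 or control 1.

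Of the 12 class II genes, which present peptides to helper T cells, 5 rose upstream (median 0.87), 2 of 11 rose and 1 fell over the body (0.69), and 1 of 11 rose downstream (0.70). H2-Ea had 167 and 70.9 CPM upstream in knockouts, against 16.5 and 16.6 CPM in controls (log2 fold 2.84 ± 0.55, edgeR adjusted p = 9.2e-06), and H2-Ab1, H2-Aa and H2-Eb1 rose by 2.16, 1.78 and 1.25. Over the body Cd74, the invariant chain, rose by 2.64 and H2-Ab1 by 1.61. Ciita, the class II counterpart of Nlrc5, had 50.9 and 71.6 CPM over its body in knockouts, against 118 and 97.1 CPM in controls (log2 fold -0.81 ± 0.29, edgeR adjusted p = 0.0222). The fitted Ciita and Nlrc5 values thus lay on opposite sides of 0, and that difference was not tested. At most 2 class II genes passed upstream without knockout 1, without control 1 or without control 2, and the fall of Ciita was lost without each of them and under library totals, receptor scaling, pooled totals or the replicate block. Over the body 4 rose without knockout 2 and 1 without either control, and downstream 6 rose without knockout 2.

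Among 25 regulators and interferon receptors, 17 rose upstream (median 1.69), 14 rose over the body (1.14) and 3 of 23 rose downstream (0.51). Nfya, a subunit of the factor that binds CCAAT, had 144 and 52.1 CPM upstream in knockouts, against 13.9 and 14.1 CPM in controls (log2 fold 2.80 ± 0.53, edgeR adjusted p = 4.84e-06). The NF-kB genes Nfkb2 and Rela rose by 2.70 and 2.88 upstream and by 3.07 and 2.39 over the body, and Nfyc rose by 2.33 upstream. Over the body the interferon receptor genes Ifngr1 and Ifnar2 rose by 1.65 and 1.40, and downstream Ifngr1, Irf2 and Atf1 rose by 2.12, 2.55 and 1.18. Upstream at most 7 passed without knockout 1, without control 1 or without control 2. Over the body 4, 2 and 7 passed without those libraries, and downstream at most 2, while 7 passed without knockout 2. The downstream calls of this list were lost with DESeq2 size factors, with no filter and with the replicate block.

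The 17 interferon response genes, which share the inducer of class I, showed the least. Upstream 3 rose (median -0.02), over the body 2 rose (0.16), and downstream 2 of 16 rose (0.17). Bst2, which tethers viruses, had 39.8 and 15.5 CPM upstream in knockouts, against 4.34 and 3.31 CPM in controls (log2 fold 2.81 ± 0.61, edgeR adjusted p = 7.33e-05), and Irf7 and Ifih1 rose by 1.29 and 1.22. Irf7 and Isg15 rose over the body, by 2.55 and 1.98, and Isg15 and Usp18 rose downstream, by 2.52 and 1.33. Mx1, whose promoter drives the recombinase, had 180 and 206 CPM upstream in knockouts, against 311 and 257 CPM in controls, and did not pass (log2 fold -0.56 ± 0.82, edgeR adjusted p = 0.589). In each region class at most 1 of these genes passed without knockout 1, without control 1 or without control 2, and upstream 5 passed without knockout 2. The upstream list median was 0.05 with DESeq2 size factors and -0.20 with library totals, and the downstream one was -0.07 with library totals.

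**Figure D5:**
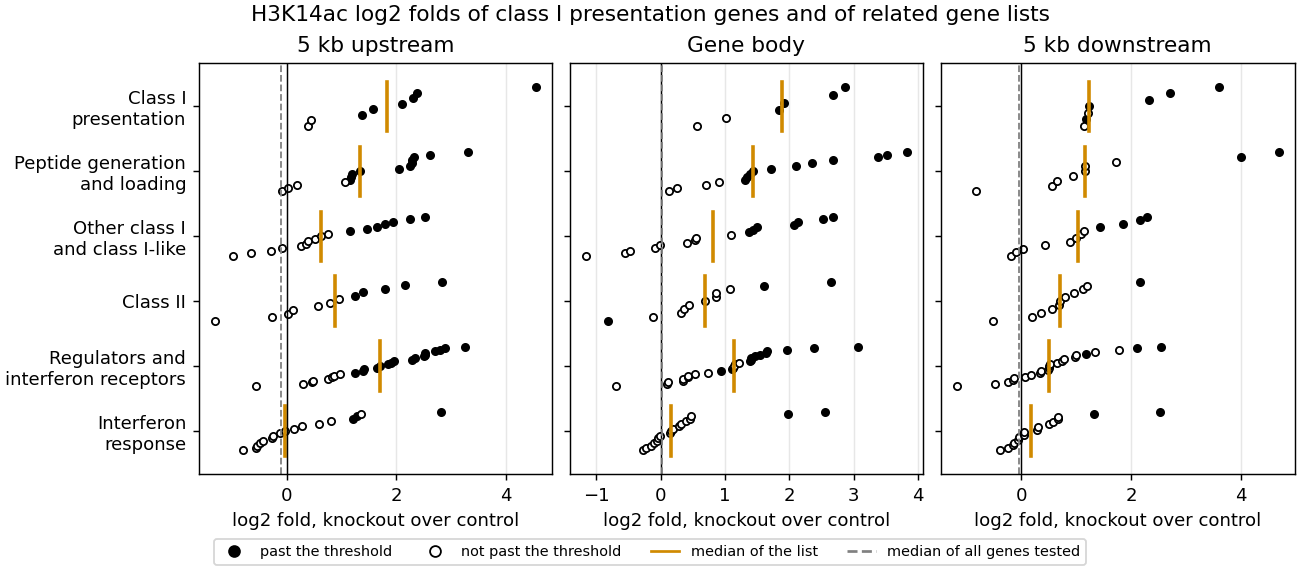
Log2 fold of H3K14ac, knockout over control, of each tested gene of the 8 class I presentation genes and of 5 related lists, in the 3 region classes, with filled points past the threshold. Orange bars are list medians and the dashed line is the median of all genes tested. The medians of the class I presentation genes are 1.84, 1.88 and 1.24, and those of the interferon response genes are -0.02, 0.16 and 0.17.

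Genes with CpG-rich promoters made up many of the rises in the tables as a whole. Upstream 42.4% of 8709 genes with a CpG ratio of at least 0.6 rose, against 9.17% of 7647 genes with a lower one. Over the body the shares were 35.9% and 10%, and downstream 14.2% and 7.87%. H2-D1 and B2m, with ratios of 0.65 and 0.68, belonged to the first class, and H2-K1, Tap1, Tapbp and H2-T23 to the second. These 4 also passed the threshold upstream. H2-K1, Tap1 and Tapbp lay just under the bound of 0.6, at 0.59, 0.55 and 0.56. The H2-K1 value here is that of its second start site, since a gene was classed by its highest ratio. The part of CpG content in the values of the members was not tested.

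Cell type markers were read as the same counts. Kit, which defines the sort, had 134 and 125 CPM over its body in knockouts, against 132 and 130.2 CPM in controls, and Ly6a, which encodes Sca-1, had 10.9 and 10.9 CPM against 12.5 and 12.7 CPM in controls. Of 18 markers of B cells, T cells, natural killer cells, myeloid, erythroid and stromal cells, 0 rose upstream in the edgeR fit, at an unadjusted p under 0.05 or by the DESeq2 Wald test, and Ncr1 and Dcn fell. Of all genes tested upstream 24% rose and 14.3% fell in the edgeR fit. Of the 17 tested over the body 0 rose in the same 3 ways and 5 fell (Cd8a, Ncr1, Adgre1, Cdh5 and Dcn). Of all gene bodies 23.1% rose and 15.2% fell. Downstream Cd79a (2.47) and Cd3g (3.58) rose, beside 10.8% of all genes tested there. The upstream falls and the downstream rises thus lie near the shares of all genes. The lack of upstream rises depended on the setting. There 2 markers rose and 1 fell under pooled totals, and 1 rose and 0 fell under receptor gene scaling or with a mean count of at least 50. The body calls depended on the setting: 0 fell and 2 rose under library totals, 0 fell and 1 rose under receptor gene scaling, 1 fell and 1 rose under pooled totals, and 0 fell with the replicate block or without control 1, while 1 fell without control 2 or without knockout 1. The 2 upstream falls were lost under receptor gene scaling, without knockout 1 and without control 1, and downstream 0 rose without control 1. Upstream the B cell markers summed to 115 and 157 CPM in knockouts, against 243 and 187 CPM in controls, the T cell markers to 108 and 142 CPM against 194 and 174 CPM in controls, and the myeloid markers to 381 and 310 CPM against 398 and 348 CPM in controls. Downstream the B cell markers were the higher in knockouts, with 324 and 185 CPM against 110 and 98.9 CPM in controls, as were the T cell markers, with 373 and 211 CPM against 149.5 and 152 CPM in controls. Over the body Ms4a1, a B cell marker, was at 0 in all 4 libraries. Flt3, a receptor of early progenitors, rose by log2 folds of 2.26 upstream and 1.53 over the body (edgeR adjusted p = 0.000466 and 5.17e-05). Its upstream call was lost without either control. Slamf1 and Tek, which mark stem cells, fell over the body by 0.73 and 0.88. Both of these calls were lost under library totals, pooled totals or receptor gene scaling, with the replicate block and without knockout 1 or either control. The part of the mix of LSK cells in the class I values was not tested.

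No spike-in is given in the sources used here, and a fold holds only for the scaling it was fitted with. Scaling on 1485 receptor genes of smell and pheromones put the median of all genes at 0.83 upstream, 0.67 over the body and 0.27 downstream, and library totals put it at -0.27, 0.36 and -0.23. Relative to those medians the members stayed high, with medians of 2.88, 2.58 and 1.55 under receptor scaling and 1.59, 2.24 and 1.01 under library totals. Over all genes upstream 5557 rose and 3328 fell with TMM, 4369 and 3983 under library totals, 7668 and 458 under totals pooled over region classes, and 7188 and 39 under receptor scaling. Over the body 4935 rose and 3260 fell with TMM, 6377 and 990 under library totals, 5666 and 1360 under pooled totals, and 4424 and 191 under receptor scaling. Downstream 2338 rose and 493 fell with TMM, 2115 and 943 under library totals, and 2098 and 61 under receptor scaling. Members past the threshold numbered 5 to 6 upstream, 4 to 6 over the body and 3 to 5 downstream under these scalings.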

How the data were processed

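The authors deposited whole-number read counts per Entrez gene in 3 region classes, made with featureCounts on the mm10 build per the submitters' processing notes. The sources used here do not give the aligner, the duplicate handling or the treatment of reads with several matches. Gene lengths in bp, also deposited by the authors, served for densities per kb, and CPM values were computed here from the counts.

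Each class was fitted alone, without covariates, using the quasi-likelihood F-test in edgeR 4.0.16 (R 4.3.3, limma 3.58.1). Genes passed filterByExpr with a minimum count of 10 and a minimum total of 15, libraries were scaled by TMM, and Benjamini-Hochberg adjustment ran over every gene tested in the class, with calls at an adjusted p under 0.05. Standard errors are the log2 fold over the square root of F. The edgeR step was tested on simulated data. Symbols and positions came from RefSeq GRCm38.p6, which named 93.0% of genes. The deposited length equalled the curated RefSeq span at 70.7% of 23831 genes and at 7 of the 8 members. Promoters were aligned with Biopython 1.88. Numpy 2.4.6, scipy 1.17.1, pandas 2.3.3 and matplotlib 3.10.9 under Python 3.11.15 gave the other values and the plots.

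The members, the gene lists and the naming rule were chosen with earlier results of these data known. Named were all members, Kat7, up to 4 genes past the threshold per list, region class and direction by smallest p, genes within a member's windows, and the 3 nearest genes of each member. Psmb8, Psmb9, Mx1 and the cell type markers were given besides, chosen after their values were seen. Alternatives were other scalings, DESeq2 1.42.0, other filters, each library left out in turn (a lone library is then taken to vary like the other group) and a block for the replicate number. A crossed block was added after seeing the data. The count and summed level of the LSK and blood stem cell marker list are not reported here.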

Additional observations from a re-analysis of the deposited data

How the results depend on the processing

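All 21 fitted member values kept their direction under the 13 alternatives, and of 263 values 214 stayed on the same side of the threshold, 41 no longer passed it and 8 newly passed it. Tap2 downstream had no main fit and is not among these values. With a mean count of at least 50, which tests fewer genes, 3357 genes passed upstream, 5426 over the body and 1089 downstream. In that setting 1 member passed over the body and 3 downstream. Receptor scaling gave 4615 genes over the body. The members past the threshold downstream fell to 3 with library totals, the DESeq2 Wald test, no filter and the replicate block. With 1 library left out, the genes called ranged from 71 to 11130 upstream, 1436 to 11289 over the body and 699 to 4899 downstream, and the members from 0 to 6, 2 to 5 and 1 to 5. In all 3 region classes the fewest genes were called without control 1 and the most without knockout 2, and in each of these fits the spread comes from the group that kept 2 libraries. The replicate numbers are not known to pair the libraries: the correlation of deviations between libraries with the same number was -0.284 upstream, -0.359 over the body and -0.22 downstream. The replicate block gave 4353 genes upstream, 3679 over the body and 2408 downstream, and 5, 3 and 3 members. A crossed pairing, added after seeing the data, gave 11874, 12047 and 5187 genes. The cause of these shifts was not tested. Counts of a few reads in the controls, such as 4 at Tapbp and 6 at H2-D1 upstream, limit how closely a fold can be given, and PCR copies of a molecule were counted as the deposited tables give them.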
